A study of Mus musculus with 8 samples.

Results

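Myeloid C-type lectin genes were followed in the epididymal fat pad, a visceral white fat depot that lies along the epididymis, of mice fed a high fat diet. The 10 genes were Clec4d, Clec4e, Clec4n, Clec7a, Clec12a, Clec10a, Mgl2, Cd209a, Cd209d and Cd209f. They were picked by symbol from the 16505 genes in the deposited table, and all 10 lay above the limit of mean expression used for testing. The 4 wild-type (WT) mice had the C57BL/6 strain and the wild type genotype, and the 4 knockout mice (DKO in the plots) were C57BL/6 with a double knockout of miR-181. Both groups had been on the high fat diet for 12 weeks, so no mouse on a normal diet serves as a baseline. The sources used here do not give the ages or which miR-181 loci were deleted. They also name no litter or cage, and the p-values describe only the spread among these 8 libraries. The comparison asks how gene expression of the fat of mice on this diet differs with the deletion.

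C-type lectin receptors bind sugars and other ligands on microbes and damaged cells through a fold shared by the family, many of them with the help of calcium. Activating receptors of myeloid cells signal through tyrosine motifs, their own or those of the partner chain FcRγ, to the kinase Syk and the adaptor CARD9, which drive NF-kB target genes. Inhibitory receptors recruit phosphatases such as SHP-1, and endocytic receptors of the galactose and CD209 types take up glycosylated cargo. In fat, macrophages and dendritic cells are the main known sources of these receptors, and Mgl2 and Clec10a are in common use as markers of alternatively activated macrophages.

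The miR-181 5p microRNAs share one seed, the stretch through which a microRNA pairs with messenger RNAs, and a match to it is what can be looked for in the lectin transcripts. The 4 mature 5p sequences are given here from RefSeq (GRCm38.p6), with the seed, bases 2 to 8, in capitals.
miR-181a-5p: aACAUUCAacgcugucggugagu
miR-181b-5p: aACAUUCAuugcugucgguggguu
miR-181c-5p: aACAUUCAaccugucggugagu
miR-181d-5p: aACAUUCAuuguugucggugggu
The matching site, TGAATGT, was searched on the sense strand in the longest 3′ UTR that GENCODE M21 annotates for a gene. It occurred in 2 of the 10 lectin genes, against 18.5% of the 12851 tested genes with a UTR. The windows around these sites follow, with the site in capitals.
Clec4e, site at base 52 of a 1751-base UTR: aagaacaagagTGAATGTaataacaaccaa
Clec10a, site at base 358 of a 367-base UTR: taggcaactttTGAATGTaac
Neither of these genes was higher in the knockout: Clec4e was lower and Clec10a did not pass the test, as described below. A match of letters is a description and not a functional site.

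The genes lie in clusters, and related receptors sit side by side. In the RefSeq annotation of GRCm38.p6, Clec4n, Clec4d and Clec4e are consecutive coding genes of chromosome 6, which also holds Clec7a and Clec12a. Mgl2 and Clec10a are direct neighbours on chromosome 11. Cd209a, Cd209d and Cd209f share a stretch of chromosome 8 with Cd209b, Cd209c, Cd209e and Cd209g. The promoters of 4 genes whose changes lay far apart are shown, 2 of genes lower and 2 of genes higher in the knockout. Each runs from 250 bases before to 50 bases after the RefSeq start, 5′ to 3′ on the strand of the gene, and capitals mark every match on either strand to the 5 motifs named after the sequences.
Clec4d promoter, chr6:123261857-123262156, plus strand: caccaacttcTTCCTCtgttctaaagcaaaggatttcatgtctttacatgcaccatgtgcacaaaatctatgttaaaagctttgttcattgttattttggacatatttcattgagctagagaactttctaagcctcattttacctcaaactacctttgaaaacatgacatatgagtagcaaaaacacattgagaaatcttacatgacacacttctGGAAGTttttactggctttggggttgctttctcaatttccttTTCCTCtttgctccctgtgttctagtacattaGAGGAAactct
Clec12a promoter, chr6:129349994-129350293, plus strand: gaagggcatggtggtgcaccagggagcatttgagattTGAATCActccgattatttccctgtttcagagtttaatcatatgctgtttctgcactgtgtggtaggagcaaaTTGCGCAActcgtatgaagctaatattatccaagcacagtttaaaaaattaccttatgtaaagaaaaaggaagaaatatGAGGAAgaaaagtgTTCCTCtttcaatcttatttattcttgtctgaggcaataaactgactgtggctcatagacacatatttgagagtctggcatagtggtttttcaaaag
Mgl2 promoter, chr11:70130107-70130406, plus strand: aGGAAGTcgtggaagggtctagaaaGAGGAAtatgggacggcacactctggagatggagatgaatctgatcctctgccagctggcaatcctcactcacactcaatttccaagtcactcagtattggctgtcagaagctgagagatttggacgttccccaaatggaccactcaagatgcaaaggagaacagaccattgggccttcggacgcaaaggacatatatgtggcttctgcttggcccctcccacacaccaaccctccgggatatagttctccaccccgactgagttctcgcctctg
Cd209d promoter, chr8:3878450-3878749, minus strand: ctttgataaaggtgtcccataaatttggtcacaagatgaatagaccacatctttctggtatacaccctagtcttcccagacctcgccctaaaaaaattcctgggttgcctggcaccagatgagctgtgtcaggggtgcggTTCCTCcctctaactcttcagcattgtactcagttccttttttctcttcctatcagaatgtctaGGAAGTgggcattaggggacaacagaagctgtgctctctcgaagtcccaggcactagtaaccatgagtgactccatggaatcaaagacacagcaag
Motifs were searched on both strands. GGAAGT, a form of the site of ETS factors such as PU.1, was found in 23.8% of 32851 promoters of the same length. Another such form, GAGGAA, which can overlap the first, was found in 28.3%. The AP-1 motif (TGA and TCA with any 1 base between) was found in 7.81%, the C/EBP motif TTGCNNAA in 10.8% and the E-box CACGTG, read by MiT and other bHLH factors, in 7.15%. Clec4d, which was lower in the knockout, and Mgl2 and Cd209d, which were higher, each held both GGAAGT and GAGGAA. The AP-1 and C/EBP motifs occurred once each in the Clec12a window, beside GAGGAA. The E-box occurred in none of the 4 windows.

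Depth varied widely between libraries, from 3736881 reads in knockout replicate 1 to 76838584 in knockout replicate 2. Ribosomal RNA took over 1% of reads in WT replicates 1, 3 and 4 and knockout replicate 1, and this split is called the ribosomal RNA class below. WT replicate 2 and knockout replicates 2 and 4 held over 1% of reads from epididymis markers. The labelled tissue was checked against 12 adipocyte markers, which were all present, took 0.839% to 1.49% of reads in WT and 2.14% to 3.75% in the knockout, and were higher for 11 genes. Of 18 pan-macrophage markers 17 were lower, with summed shares of 1.17% to 1.33% in WT and 0.221% to 0.307% in the knockout. In bulk tissue fewer cells of a type and less RNA per cell cannot be told apart. Each of these shares has a Wilson 95% interval no wider than 0.0310 percentage points to either side, which covers counting error only.

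The lectin genes split into a group that was lower and a group that was higher in the knockout. At a Benjamini-Hochberg adjusted p under 0.05 in limma, 5 of the 10 were lower (Clec4d, Clec7a, Clec12a, Clec4n and Clec4e), where 16.1% of all tested genes were lower. Higher were 3 of the 10 (Mgl2, Cd209d and Cd209a), against 22.7% of tested genes, and Clec10a and Cd209f passed in neither direction. Both directions together gave 8 of 10, against 38.8% of 13797 tested genes. The same 8 genes had groups without overlap, a state shared by 37.4% of tested genes. The median change of the 10 genes was −1.11 on the log2 scale, against 0.18 for all tested genes. Both counts stayed at 5 and 3 when each library was centred on its median, which moved the median of all tested genes to 0.03.

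**Figure D1:**
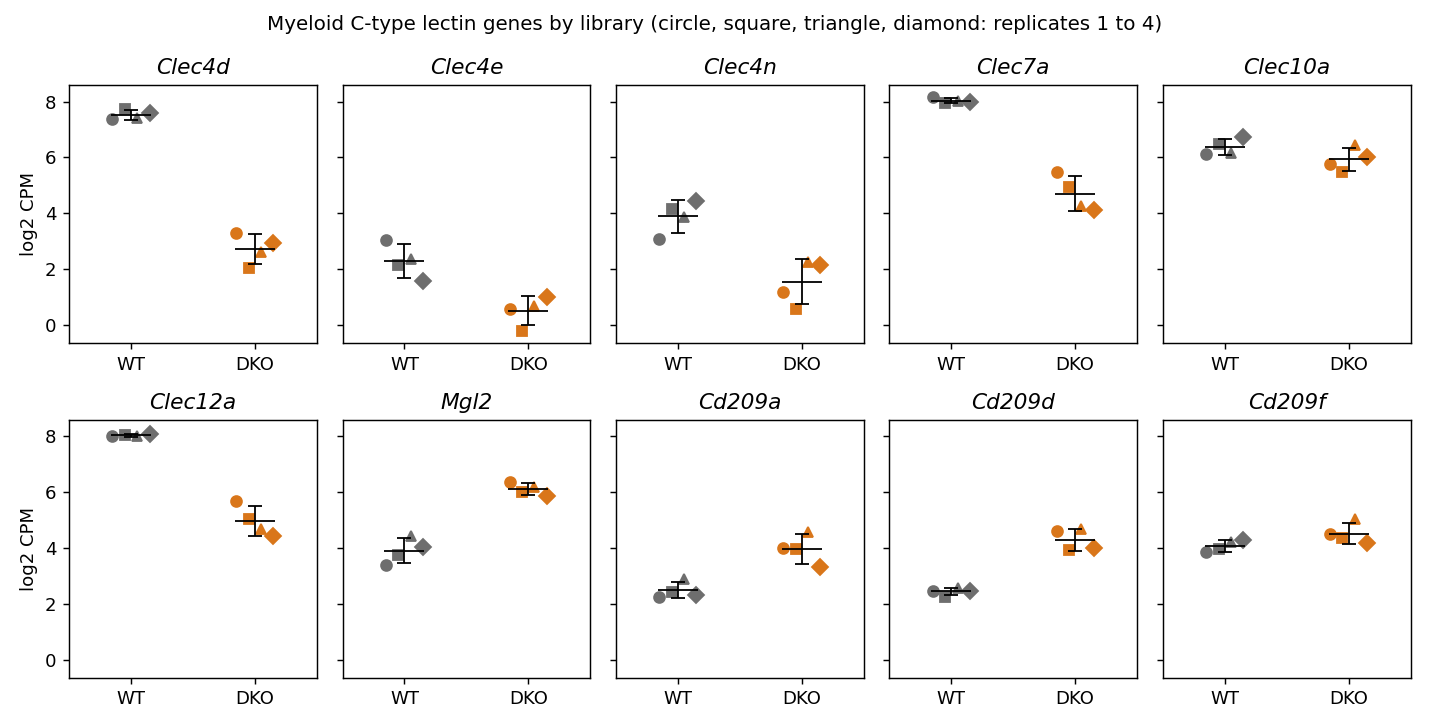
Level of each lectin gene in each library (y axis, log2 CPM, reads scaled by the library total; grey WT, orange knockout; lines are means and bars SD, n = 4). The groups do not overlap for Clec4d, Clec4e, Clec4n, Clec7a, Clec12a, Mgl2, Cd209a and Cd209d, and overlap for Clec10a and Cd209f.

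Among the activating receptors, Clec4d changed most. Clec4d encodes MCL, a receptor of mycobacterial glycolipids that pairs with FcRγ and with the product of Clec4e. Its level was 7.36, 7.73, 7.40 and 7.59 log2 CPM (log2 of reads scaled by the library total) in the 4 WT libraries and 3.29, 2.04, 2.60 and 2.93 in the knockout libraries. Every knockout library lay more than 4 log2 units below the lowest WT library. The mean fell from 7.52 ± 0.17 (SD, n = 4) to 2.71 ± 0.53, a log2 fold change, knockout minus WT, of −4.81 ± 0.24 (SE), or 28-fold lower (limma adjusted p = 1.17e-05). It ranked 4 of the 13797 tested genes counted from the lowest change. Read counts behind it summed to 6224 over the WT libraries and 725 over the knockout libraries. Within the ribosomal RNA classes the difference was −4.16 where ribosomal RNA was high (3 WT libraries and 1 knockout library) and −5.21 where it was low (1 WT and 3 knockout).

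Clec7a encodes Dectin-1, the receptor of fungal β-glucan, which carries its own activating tyrosine motif. Its level was 8.17, 7.94, 8.03 and 8.0 log2 CPM in WT and 5.48, 4.93, 4.26 and 4.12 in the knockout. WT libraries were close together, and the knockout libraries spread over more than 1 log2 unit without reaching them. The change was −3.34 ± 0.27, or 10.1-fold lower (limma adjusted p = 4.79e-05), with −2.59 and −3.51 in the high and low ribosomal RNA classes.

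Clec12a encodes an inhibitory receptor that recognises uric acid crystals and dead cells. Its values were 8.02, 8.03, 7.99 and 8.09 log2 CPM in WT and 5.66, 5.03, 4.69 and 4.42 in the knockout. The groups were again apart, and knockout replicate 1 was the highest of its group for both Clec7a and Clec12a. Clec12a changed by −3.08 ± 0.23, or 8.46-fold lower (limma adjusted p = 3.45e-05), and by −2.37 and −3.32 within the high and low classes. The changes of Clec7a and Clec12a, receptors with opposite signalling roles, differed by 0.26.

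Clec4n and Clec4e, the neighbours of Clec4d, were lower by less and from lower levels. Clec4n encodes Dectin-2, a receptor of α-mannan that signals through FcRγ. Its values were 3.08, 4.15, 3.87 and 4.43 log2 CPM in WT and 1.19, 0.56, 2.24 and 2.15 in the knockout. The groups did not overlap, and the gap between the lowest WT library and the highest knockout library was smaller than the spread within the knockout. The change was −2.35 ± 0.43, or 5.09-fold lower (limma adjusted p = 0.00286), and knockout replicate 1 rested on 8 reads.

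Clec4e encodes Mincle, which binds mycobacterial cord factor and the nuclear protein SAP130 released by dead cells. Its values were 3.04, 2.13, 2.35 and 1.58 log2 CPM in WT and 0.56, −0.23, 0.69 and 0.99 in the knockout. These came from 33, 67, 34 and 17 reads in WT and 5, 65, 58 and 40 in the knockout, so each value rests on few reads. The groups did not overlap, and the change was −1.77 ± 0.40, or 3.41-fold lower (limma adjusted p = 0.00763). Sap130, the gene of that ligand, stood at 5.38 ± 0.13 in WT and 5.54 ± 0.05 in the knockout, a difference of 0.16 ± 0.10 that did not pass (limma adjusted p = 0.231).

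The galactose-type lectins moved apart. Mgl2 encodes MGL2 (CD301b), a receptor of terminal N-acetylgalactosamine on macrophages and dendritic cells. Its level was 3.38, 3.76, 4.44 and 4.04 log2 CPM in WT and 6.35, 6.01, 6.19 and 5.87 in the knockout. All knockout libraries lay more than 1 log2 unit above the highest WT library. The mean rose from 3.90 ± 0.45 to 6.11 ± 0.21, a change of 2.20 ± 0.22, or 4.60-fold (limma adjusted p = 0.00013).

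Clec10a encodes MGL1 (CD301a), which binds Lewis-type galactose structures. Its values were 6.11, 6.49, 6.16 and 6.73 log2 CPM in WT and 5.76, 5.49, 6.43 and 6.02 in the knockout. The groups overlapped, as knockout replicate 3 lay above WT replicates 1 and 3. The difference was −0.45 ± 0.21 and did not pass (limma adjusted p = 0.125), while without knockout replicate 3 it was −0.62 and passed (adjusted p = 0.0415). Mgl2 and Clec10a share near-identical sequence in stretches of at least 75 bases at 97% identity or more. In the coding transcript of each gene with the most shared bases, these took 697 of 1635 bases (42.6%) for Mgl2 and 584 of 789 (74.0%) for Clec10a. Clec10a has 7 annotated coding transcripts, the longest of 2332 bases. The sources used here do not say how reads that match both genes were counted. Both values are uncertain for that reason.

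Of the CD209 genes, mouse relatives of human DC-SIGN, Cd209d and Cd209a were higher in the knockout. Cd209d encodes SIGNR3, a receptor of mycobacterial and fungal sugars. Its values were 2.46, 2.25, 2.58 and 2.47 log2 CPM in WT and 4.60, 3.91, 4.67 and 4.0 in the knockout. The WT libraries were within a narrow range and all knockout libraries lay above it. The change was 1.85 ± 0.21, or 3.61-fold (limma adjusted p = 0.000252).

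Cd209a encodes the DC-SIGN homologue found on some dendritic cells and monocyte-derived cells. It stood at 2.26, 2.42, 2.89 and 2.33 log2 CPM in WT and at 3.99, 3.96, 4.58 and 3.30 in the knockout. Knockout replicate 4 was the lowest of its group and still above every WT library. The change was 1.48 ± 0.28, or 2.80-fold (limma adjusted p = 0.00304).

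Cd209f encodes a less studied member of the family. Its values were 3.84, 3.97, 4.22 and 4.30 log2 CPM in WT and 4.48, 4.37, 5.04 and 4.18 in the knockout. Only knockout replicate 4 fell within the WT range, and the difference of 0.43 ± 0.20 did not pass (limma adjusted p = 0.115). Cd209f shares 596 of 1165 bases (51.2%) with Cd209g, so its value is uncertain in the same way as that of Mgl2.

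The rest of the CD209 cluster was examined after these values were seen. Cd209b changed by 1.33 ± 0.26 (limma adjusted p = 0.00373) and Cd209c by 2.17 ± 0.27 (adjusted p = 0.000356). Cd209c is uncertain, with 725 of 1550 bases near-identical to other transcripts. Cd209g differed by 0.88 ± 0.23 (limma adjusted p = 0.0159), a call that was lost with quantile normalization (0.58, adjusted p = 0.164), with voom on the whole reads (0.85, adjusted p = 0.0567), in thinned reads (0.62, adjusted p = 0.226) and without the 3 libraries rich in epididymis reads (0.96, adjusted p = 0.059). Cd209e fell below the limit for testing, with 11 reads over the WT and 253 over the knockout libraries, and differed by 2.30 ± 0.44 when no limit was set (limma adjusted p = 0.00398). All 7 CD209 genes in the table therefore had a higher mean in the knockout, and 5 of the 6 tested genes passed. Of all tested genes 22.7% were called higher, and their median change was 0.18. As Cd209f and Cd209g share sequence, the genes of the cluster are not fully separate measurements.

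**Figure D2:**
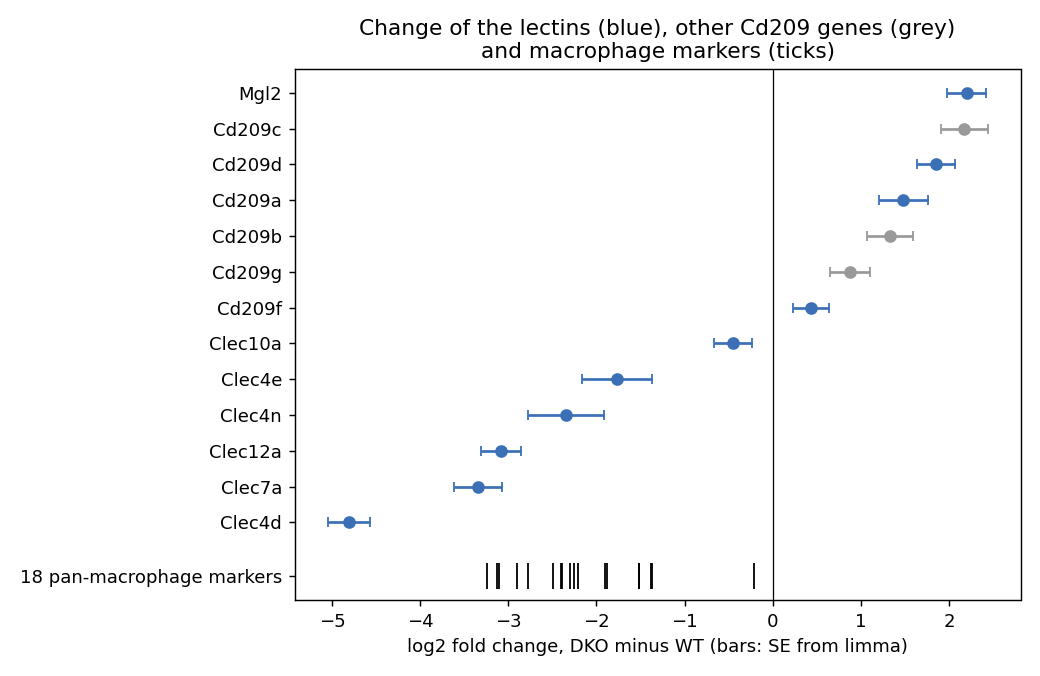
Log2 fold change, knockout minus WT, of the 10 lectin genes (blue) and 3 other tested Cd209 genes (grey), with bars of 1 SE from limma, and of the 18 pan-macrophage markers (black ticks). Clec4d at −4.81 lies below all the marker ticks, while Mgl2 at 2.20 and the Cd209 genes lie to the right of 0.

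The order of the lectins by level differed between the groups. Per kilobase of transcript and on the log2 scale, WT levels ran from Clec4d (7.12 ± 0.17) through Clec7a (6.85 ± 0.10), Clec12a (6.71 ± 0.04), Clec10a (5.15 ± 0.29), Cd209f (3.84 ± 0.21), Clec4n (3.59 ± 0.58), Mgl2 (3.20 ± 0.45), Cd209d (2.56 ± 0.13) and Cd209a (1.91 ± 0.29) to Clec4e (0.94 ± 0.60). Of neighbours in this order, only Clec12a and Clec10a, Clec10a and Cd209f, and Cd209d and Cd209a had ranges over the 4 libraries that did not overlap. In the knockout Mgl2 came first (5.40 ± 0.21), followed by Clec10a (4.70 ± 0.40), Cd209d (4.41 ± 0.39) and Cd209f (4.27 ± 0.37). Clec12a (3.63 ± 0.54), Clec7a (3.51 ± 0.63) and Cd209a (3.39 ± 0.52) came next, and Clec4d (2.31 ± 0.53), Clec4n (1.24 ± 0.81) and Clec4e (−0.83 ± 0.52) were lowest. There the only neighbours without overlap were Clec4n and Clec4e. Clec4d thus moved from rank 1 to rank 8 and Mgl2 from rank 7 to rank 1. These levels use the longest coding transcript of each gene as its length.

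The same change can be read as the make-up of all reads of the 10 genes. Activating receptors (Clec4d, Clec4e, Clec4n and Clec7a) took 54.6% ± 1.6 (SD, n = 4) of these reads in WT and 14.9% ± 3.5 in the knockout. The inhibitory receptor Clec12a took 30.5% ± 0.5 and 12.3% ± 3.7. Galactose-type lectins rose from 11.6% ± 1.7 to 50.3% ± 5.4 and the CD209 genes from 3.26% ± 0.43 to 22.5% ± 3.5. The libraries of the groups did not overlap in any of these shares, which add to 100% and so are not independent of each other. The summed level of the 10 genes was 857 ± 33 CPM in WT and 264 ± 45 CPM in the knockout. The widest Wilson 95% interval reached 2.89 percentage points from the share of a library.

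**Figure D3:**
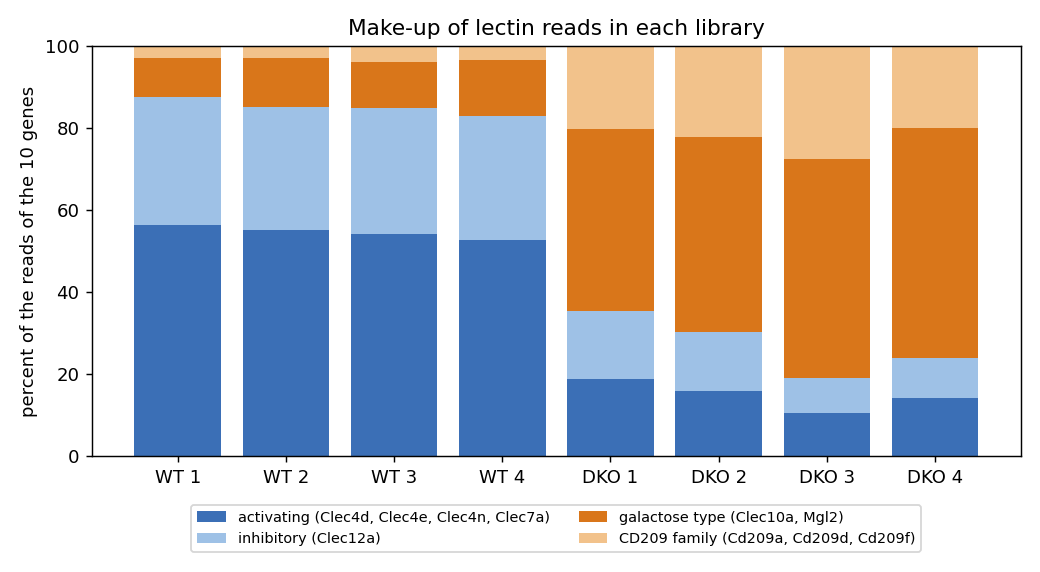
Percent of the reads of the 10 lectin genes in each library that came from activating receptors (dark blue), the inhibitory receptor Clec12a (light blue), galactose-type lectins (dark orange) and CD209 genes (light orange). Activating receptors hold 52.7% to 56.4% in WT and 10.5% to 18.8% in the knockout.

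Related receptors were also compared within each library, which removes the scaling of libraries. Of 8 pairs, 6 differed between the groups in an exact two-sided permutation test (p = 0.0286, the smallest that 70 arrangements of 4 against 4 can give, and 0.0381 after Benjamini-Hochberg adjustment over the 8 pairs). Mgl2 minus Clec10a went from −2.47 ± 0.50 log2 units in WT to 0.18 ± 0.44 in the knockout, a shift of 2.65. Clec4d minus Clec4e shifted by −3.04 and Clec4d minus Clec4n by −2.46, so that Clec4d fell by more than both of its neighbours. Among the CD209 genes, Cd209d minus Cd209f shifted by 1.42 and Cd209a minus Cd209f by 1.05.

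Clec7a minus Clec12a shifted by −0.26, from 0.00 ± 0.12 to −0.26 ± 0.15, and this call was lost in reads thinned to the smallest library (−0.31, exact permutation test, adjusted p = 0.114). Its groups were barely apart, with WT replicate 2 at −0.093 and knockout replicate 2 at −0.0995. Clec4n minus Clec4e overlapped between the groups, with a shift of −0.58 (exact permutation test, p = 0.4, adjusted p = 0.4). Cd209a minus Cd209d also overlapped, with a shift of −0.37 (exact permutation test, p = 0.2, adjusted p = 0.229).

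**Figure D4:**
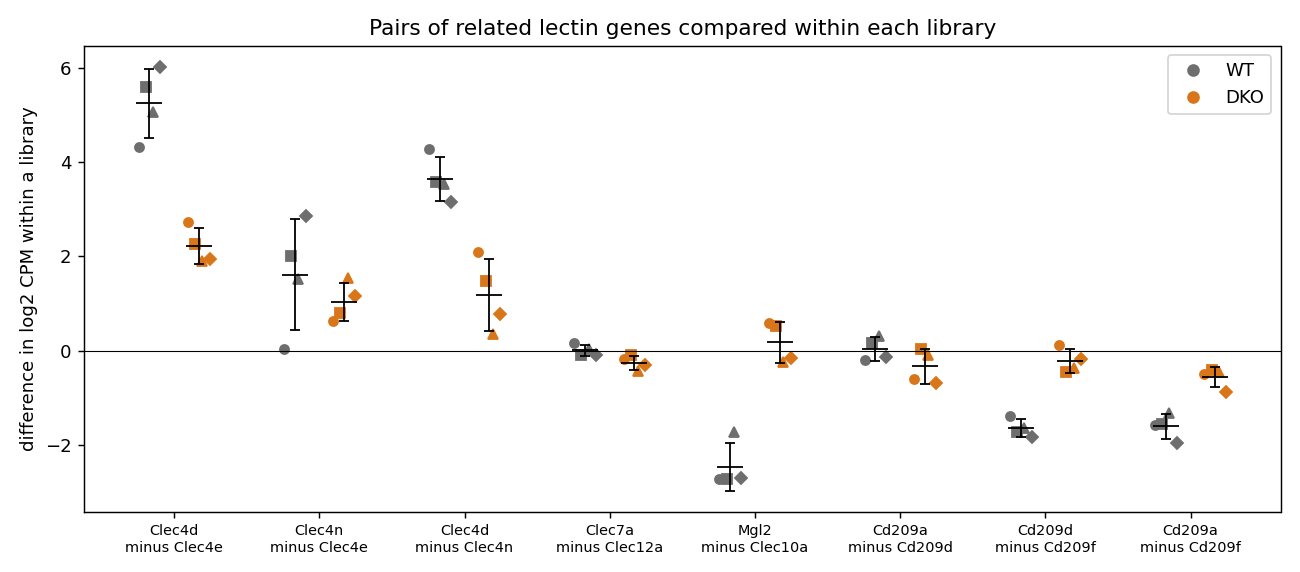
Difference in log2 CPM between 2 lectin genes within each library, for 8 pairs (grey WT, orange knockout; lines are means and bars SD, n = 4). The groups overlap for Clec4n minus Clec4e and Cd209a minus Cd209d, and are apart for the other 6 pairs, though barely for Clec7a minus Clec12a.

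Since macrophage transcripts were lower in the knockout, the lectins were also placed against them. The mean log2 level of the 18 pan-macrophage markers was 8.37 ± 0.08 in WT and 6.21 ± 0.16 in the knockout, and this mean was subtracted from every gene of the same library. On that scale 3 of 10 lectin genes were lower, against 0.971% of tested genes, and 5 were higher, against 93.6%. The lower genes were Clec4d (−2.64 ± 0.23, limma adjusted p = 1.24e-06), Clec7a (−1.18 ± 0.23, adjusted p = 0.000606) and Clec12a (−0.92 ± 0.19, adjusted p = 0.000857). With Adgre1, the gene of a standard macrophage surface marker, as the only reference, Clec4d stood at −1.90 (limma adjusted p = 5.45e-05), Clec7a at −0.44 (adjusted p = 0.0421) and Clec12a at −0.18, which did not pass (adjusted p = 0.34). Of the markers themselves, 3, namely Cd68 (−3.24 ± 0.30), Ms4a7 (−3.13 ± 0.18) and Ctss (−3.10 ± 0.27) (singled out after their values were seen), had total-scaled changes below that of Clec12a. Of 16 genes listed for lipid-associated macrophages 14 were lower and 0 higher, with a median total-scaled change of −3.33. Scaled by totals, 16.1% of all tested genes were lower. Relative to the markers, Clec7a and Clec12a stood at −0.64 and −0.42 in the high ribosomal RNA class, where knockout replicate 1 is the only knockout library and the highest of its group for both genes. In the low class, with WT replicate 2 as the only WT library, they stood at −1.24 and −1.05, and the classes were not compared by a test.

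Clec4n and Clec4e did not differ from the markers beyond the spread between libraries. Clec4n stood at −0.18 ± 0.45 (limma adjusted p = 0.695) and changed sign under 5 alternatives without passing in any. Clec4e stood at 0.39 ± 0.43 (limma adjusted p = 0.383), but was called higher with log2(CPM + 1) values (0.86, adjusted p = 0.022) and with Adgre1 as reference (1.13, adjusted p = 0.0431). Relative to the markers Mgl2 was higher by 4.37, Cd209d by 4.02, Cd209a by 3.65, Cd209f by 2.60 and Clec10a by 1.72. Nearly all genes were higher on this scale, so these 5 calls are read only as not having fallen with the markers.

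The signalling chain of the activating receptors was lower with them. Of 24 genes from FcRγ to CARD9 and NFAT, all tested, 17 were lower and 1 was higher, with a median change of −1.36. Of all tested genes 16.1% were lower. Fcer1g, which encodes FcRγ, fell from 8.05 ± 0.20 to 5.56 ± 0.22 log2 CPM (limma, −2.49 ± 0.14, adjusted p = 1.34e-05). Its relative Tyrobp changed by −2.78 ± 0.14 and Vav1, an exchange factor, by −2.19 ± 0.15. Syk changed by −1.94 ± 0.32 (limma adjusted p = 0.00177) and Card9 by −1.65 ± 0.22 (adjusted p = 0.000488). The genes that did not pass were Src, Malt1, Map3k14, Map3k7, Traf6 and Nfatc1. Fcer1g and Tyrobp are themselves pan-macrophage markers, and how far the chain follows the lower macrophage transcripts was not tested.

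Genes of the inhibitory side fell as well. Of 9 tested genes 8 were lower, against 16.1% of all tested genes, and 1 was higher (Ptpn11, the gene of the phosphatase SHP-2). The median change was −1.84. Ptpn6, which encodes SHP-1, changed by −1.84 ± 0.14 (limma adjusted p = 3.62e-05). The inhibitory receptor genes Lilrb4a (−3.44 ± 0.18), Pirb (−2.50 ± 0.15) and Sirpa (−2.36 ± 0.19) changed by more. The 18 pan-macrophage markers had a median change of −2.28. How far the inhibitory genes follow the lower macrophage transcripts was not tested.

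Among transcripts known to be induced through CARD9, those that passed were lower. Of 18 such genes with a row, 12 were tested, of which 4 were lower and 0 higher, with a median of −1.48, while 8 did not pass. All tested genes gave 16.1% lower and 22.7% higher. Ccl3 and Ccl4, which encode macrophage chemokines, changed by −3.99 ± 0.36 and −3.55 ± 0.56. Their lowest knockout values were −1.32 and −2.90 log2 CPM. These lowest values rest on few or no reads, so the sizes of both changes are uncertain. Tnf changed by −2.38 ± 0.35 and the inflammasome gene Nlrp3 by −1.54 ± 0.27. Without knockout replicate 1 the number of lower genes was 7 of 12, and with array weights 8 of 12, while a limit of 2 log2 CPM left 3 genes tested and 0 lower. With no limit 8 of 18 were lower, among them Il10, Il1a, Il6 and Il12b.

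Alternative activation genes, with which Mgl2 and Clec10a are often grouped, were divided. Of 15 tested genes 6 were higher and 2 lower, with a median of 0.21 that is close to that of all genes. Among all tested genes 22.7% were higher and 16.1% lower. Retnla, which encodes the secreted protein RELMα, rose by 2.81 ± 0.51 (limma adjusted p = 0.00278), the chemokine gene Ccl24 by 1.68 ± 0.31 and the haemoglobin scavenger receptor gene Cd163 by 1.42 ± 0.23. Folr2, a folate receptor gene of resident macrophages, changed by −2.01 ± 0.21, and the other lower gene was Arg1. Over the alternatives the number of higher genes ran from 4 to 6.

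Transcription factors of myeloid genes were unevenly changed. Of 18 tested genes 8 were lower and 3 higher (Cebpa, Pparg and Nr1h3, which adipocytes also express), with a median of −0.45, and the alternatives gave 7 to 9 lower and 2 to 3 higher. The shares over all tested genes were 16.1% lower and 22.7% higher. The call of Nr1h3 (0.49, limma adjusted p = 0.0343) was lost under 10 alternatives, median centring among them (0.35, adjusted p = 0.125). Among the lower genes, Cebpb had groups that overlapped (−0.45, limma adjusted p = 0.0486). Its call was also lost under many alternatives, array weights among them (−0.35, adjusted p = 0.0927). Spi1, which encodes PU.1, changed by −2.52 ± 0.28, Tfec by −2.26 ± 0.29 and Mitf by −1.75 ± 0.16. Of 18 dendritic cell markers 2 were higher, 3 lower and 13 did not pass, with a median of −0.04. Neither count was clearly above the share of all tested genes, 22.7% higher and 16.1% lower. The alternatives gave 1 to 6 higher and 2 to 5 lower, with 1 higher without WT replicate 1, WT replicate 4, knockout replicate 2 or knockout replicate 3, 4 higher without WT replicate 2, and 5 lower without knockout replicate 1. Their median was −0.41 with quantile normalization and 0.54 over the 10 markers left by a limit of 2 log2 CPM. Their summed share was 0.107% to 0.113% of reads in WT and 0.0571% to 0.0823% in the knockout. Sirpa weighed most in the WT sum, at 9.53 ± 0.13 log2 CPM, where the next marker, Cd1d1, stood at 6.30 ± 0.42. In the knockout Sirpa stood at 7.16 ± 0.40 and Cd1d1 at 7.89 ± 0.55, so the lower sum does not describe the markers as a set. Clec9a, a marker of cross-presenting dendritic cells and itself a C-type lectin, differed by −0.59 ± 0.55 (limma adjusted p = 0.419). The higher markers were Cd1d1 and Dpp4, and the lower ones Sirpa, Irf8 and Fscn1. Neither Cd1d1 nor Dpp4 is limited to dendritic cells. Sirpa is also counted above with the inhibitory genes, and Irf8 with the transcription factors of myeloid genes. No marker of these cells was at 0 in a group, and their part in the higher Mgl2 and Cd209a was not tested.

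Other C-type lectins and proteins with the same fold moved in both directions. Of 41 such genes with a row, 31 were tested, of which 12 were lower, 8 higher and 11 did not pass, with a median of −0.12. Over all tested genes 16.1% were lower and 22.7% higher, so the higher part is close to the share of all genes. The settings gave 9 to 13 lower and 4 to 9 higher, with 5 higher without WT replicate 4 or knockout replicate 3. The 8 higher genes included Cd209b, Cd209c and Cd209g, described above, and Thbd (1.66 ± 0.25, limma adjusted p = 0.000967), singled out after its values were seen. Cd72, which encodes an inhibitory receptor of B cells and macrophages, had the smallest p (−3.58 ± 0.19). The genes of the DCIR group on chromosome 6, Clec4a2 and Clec4a3, changed by −2.22 ± 0.26 and −1.49 ± 0.19. Mrc1, the mannose receptor CD206, changed by −1.32 ± 0.14 and Cd93 by −1.40 ± 0.15. Clec5a, a DAP12-coupled receptor gene, changed by −1.12 ± 0.25 (limma adjusted p = 0.00675), a call lost without the 3 libraries rich in epididymis reads (−0.98, adjusted p = 0.0578).

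The genes whose profiles over the 8 libraries were nearest to each lectin were found by the root mean square difference of centred log2 values, among 13111 tested genes with a name. Spp1, the osteopontin gene, was nearest to Clec4d (0.34), followed by Eef1a2 and Hmga2. Ptchd1 (0.11) and Lipa, the gene of lysosomal acid lipase (0.12), were nearest to Clec7a, and Gpr137b (0.12) and again Lipa (0.13) to Clec12a. Frzb and Tfec were nearest to Clec4n, and Fgfbp3 and Sap30 to Clec4e. Rbp4, the gene of retinol-binding protein, was nearest to Mgl2 (0.26), Fgfrl1 to Cd209d (0.16) and Fam174b to Cd209a (0.20). Cdr2l was nearest to Clec10a and Kif7 to Cd209f (0.13 each). The measure contains the difference between the groups, so it ranks genes of similar size and direction of change first.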

How the data were processed

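Per the labels' protocols, polyA RNA was made into stranded TruSeq libraries and read as 75-base single ends. Per the submitters' processing notes, Trimmomatic, TopHat2, featureCounts and limma were used with build mm9; the sources used here give no versions, strand setting or handling of multiply matching reads. The deposited file holds the authors' voom log2 CPM values of 16505 genes, matched to samples by title. All values returned whole reads within 0.01 read, so totals and counts are known.

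Tests used limma 3.58.1 in R 4.3.3 (lmFit, eBayes with a trend, group as the only term, two-sided) on the log2 values of the 13797 genes whose mean reached 0 log2 CPM, with Benjamini-Hochberg adjustment at 0.05 over all of them. Pairs were tested by exact permutation with SciPy 1.17.1. Sequences came from RefSeq (GRCm38.p6, 8 of 10 genes with a promoter entry) and GENCODE M21, joined by symbol only, and shared stretches from blastn 2.17.0. Plots were drawn with matplotlib 3.10.9. The scripts were tested on simulated reads.

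The members and lists were chosen with earlier results of these data known. Beyond the 10 genes, the text names up to 4 genes of each list by smallest p, a fixed set and the 3 nearest profiles, of which some are not reported here. Cd209b, Cd209c, Cd209e, Cd209g, and the genes given only by name or as exceptions within a list, were chosen after their values were seen. Alternatives were other transforms, filters, scalings, weights, a replicate block, thinned reads, the ribosomal RNA class and left-out libraries.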

Additional observations from a re-analysis of the deposited data

How the results depend on the processing

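The counts of lectin genes (5 lower, 3 higher, and relative to the macrophage markers 3 lower and 5 higher) stayed within 1.5 times under every alternative run. The relative counts were 2 lower and 6 higher with Adgre1 as the only reference. Of 229 changes of single lectin genes under the alternatives 224 counted as unchanged, as did 227 of 239 relative changes and 87 of 88 pair differences. Where an alternative gave a test, this meant the same direction and side of the threshold, and size was not compared. Where it gave none, it meant a value within the pooled SD of the groups from the main value. Relative to the markers, Clec7a thus counted as unchanged at −0.44 with Adgre1 as reference, against −1.18. None of the called values changed sign. The count of all changed genes was 5353. Higher genes made up 58.6% of these calls (3137 higher, 2216 lower) with total scaling, 46.4% with median centring (2444 and 2825), 48.2% with quantile normalization (2478 and 2660) and 44.9% with voom on the whole reads (2414 and 2964); the cause was not tested. A limit of 2 log2 CPM left Clec4e untested. Pair counts were not run without the 3 libraries rich in epididymis reads or with a library left out, where the arrangements are too few for all pairs to pass. Depth limits Clec4e and Clec4n most, with 5 and 8 reads in knockout replicate 1.

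Replicate numbers did not pair the libraries: deviations of same-numbered libraries correlated at 0.36, 0.79, 0.24 and −0.36, and 2 of 8 libraries correlated best with their own number. With the number as a replicate block, limma called 5 lectin genes lower and 3 higher, 3 lower and 5 higher relative to the markers, and 5368 genes in all.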
